A study of Homo sapiens with 12 samples.

Results

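The genes described here are the inhibitors of cyclin-dependent kinases, the D cyclins and the retinoblastoma (RB) proteins that gate the entry into S phase. They are 10 genes, found by their gene symbols and Entrez identifiers among the 25702 genes of the count table: CDKN2B, CDKN2A, CDKN2C, CDKN1A, CDKN1B, CDKN1C, CCND1, CCND2, RB1 and RBL2. RNA was sequenced from WI-38 cells, a line of normal human lung fibroblasts, in 4 groups of 3 flasks. The D1 group was untreated and harvested after 1 day at passages 2 to 3, and the D1+TGF-β group was grown with TGF-β over the same day and passages. The D20 group was untreated and harvested after 20 days at passages 5 to 6, and the D20+TGF-β group was kept in TGF-β throughout that time. According to the methods, flasks were confluent when TGF-β was first added, and the D20 flasks of each treatment descended from 1 flask. The 3 flasks of a D20 group are therefore sisters. In D20+TGF-β vs D20, TGF-β and the parent flask cannot be told apart, nor in the difference of the D20 and D1 responses. The D20 flasks were seeded so as to be nearly confluent at harvest. Days in culture, passage, density and regrowth after splitting thus cannot be told apart between D1 and D20.

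In dividing cells the D cyclins activate CDK4 and CDK6, which phosphorylate RB and its relatives and so free the E2F factors to switch on the genes of DNA replication. The INK4 proteins (p16, p15, p18 and p19) bind CDK4 and CDK6, whereas the CIP/KIP proteins (p21, p27 and p57) bind cyclin-CDK complexes more broadly. In cells at rest RBL2, also called p130, holds E2F4 and the MuvB core in the DREAM repressor. In epithelial cells the gene of p15 is a classic target of TGF-β.

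Library totals ranged from 8674488 to 18286197 counts, and the deepest and the shallowest library were both from D1+TGF-β. The libraries of D1 replicate 2 and D20+TGF-β replicate 3 lay farthest from their groups, with a root mean square deviation of 0.21 and 0.19 on the log2 scale against 0.07 to 0.16 in the other 10. All 9 fibroblast markers had counts in every library, and their summed level was between 14103 and 23954 cpm (counts scaled by the library total). The 4 epithelial markers summed to 0.388 to 2.25 cpm with KRT5 at 0, and the 3 endothelial markers to 0.454 to 1.71 cpm with CDH5 at 0. The 3 leukocyte markers summed to 5.63 to 6.36 cpm in D20 and to at most 0.629 cpm in the other groups. Almost all of this was CD14, PTPRC did not exceed 0.194 cpm, CD3E was at 0, and its part in the D20 results was not tested.

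The stretches of DNA before the starts of CDKN2B, CDKN2A and CDKN1A are shown because CDKN2B had the largest response to TGF-β among the 10 genes while its neighbour CDKN2A and the p21 gene CDKN1A had no called change with it. Each is the 250 bases before an annotated start, from RefSeq on GRCh38.p14, written 5′ to 3′ in the direction of the gene. Capitals mark the GC box, GGGCGG or its reverse complement, the core of an Sp1 site, and the SMAD box, CAGAC or its reverse complement. CDKN2A has 2 starts, the upstream one used by the ARF transcript and the downstream one by the p16 transcript.
CDKN2B, chr9:22009306-22009555, minus strand: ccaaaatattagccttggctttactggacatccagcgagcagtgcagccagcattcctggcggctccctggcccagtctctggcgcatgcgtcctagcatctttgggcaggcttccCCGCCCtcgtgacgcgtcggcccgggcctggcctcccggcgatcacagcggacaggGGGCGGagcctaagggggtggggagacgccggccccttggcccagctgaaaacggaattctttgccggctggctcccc
CDKN2A, upstream start, chr9:21995325-21995574, minus strand: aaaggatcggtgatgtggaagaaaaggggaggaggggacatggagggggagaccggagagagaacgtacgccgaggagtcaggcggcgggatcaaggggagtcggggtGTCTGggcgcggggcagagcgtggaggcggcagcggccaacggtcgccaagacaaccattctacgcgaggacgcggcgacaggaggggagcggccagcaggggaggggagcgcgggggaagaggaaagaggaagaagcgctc
CDKN2A, downstream start, chr9:21974858-21975107, minus strand: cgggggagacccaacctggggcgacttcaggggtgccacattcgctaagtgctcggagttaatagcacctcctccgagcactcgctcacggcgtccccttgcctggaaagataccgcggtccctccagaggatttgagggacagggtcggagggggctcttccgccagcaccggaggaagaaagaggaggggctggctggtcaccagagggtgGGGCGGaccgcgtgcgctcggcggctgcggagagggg
CDKN1A, chr6:36678464-36678713, plus strand: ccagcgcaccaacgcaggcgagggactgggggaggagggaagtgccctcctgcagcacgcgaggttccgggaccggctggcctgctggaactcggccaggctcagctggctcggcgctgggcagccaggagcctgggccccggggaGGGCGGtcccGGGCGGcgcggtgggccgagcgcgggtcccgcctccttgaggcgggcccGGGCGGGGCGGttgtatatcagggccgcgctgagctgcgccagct

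Counted back from the start, the CDKN2B stretch held GC boxes at -134 and -78 and no SMAD box. The upstream CDKN2A stretch held 1 SMAD box at -142 and no GC box, and the downstream one held 1 GC box at -37. The CDKN1A stretch held 4 GC boxes, at -104, -94, -45 and -40, of which the last pair overlap. A GC box occurred in 42.6% and a SMAD box in 38.0% of the 35116 RefSeq stretches of this length, so neither was rare. Over the 11 starts listed for 7 of the genes, 6 stretches held a GC box and 3 a SMAD box. CDKN1C, CCND1 and CCND2 were not matched.

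Of the 10 genes, 8 reached 10 cpm in 6 or more of the 12 libraries and were tested, as were 9490 genes in all. CDKN2C and CDKN1C were under it, with 32 to 277 and 23 to 209 counts per library, and their values come from a fit of all 20434 genes with a count. A change was called at a Benjamini-Hochberg adjusted p under 0.01 in the quasi-likelihood test of edgeR. In D1+TGF-β vs D1, 1 of the 8 genes was called, CDKN2B, which was higher. Of all genes tested there, 13.4% were called, 6.89% higher and 6.50% lower, and without the filter 8.30%. In D20+TGF-β vs D20, CDKN2B rose and CCND1 fell, 2 of 8, against 27.5% of all genes (12.8% higher, 14.7% lower, and 17.1% without the filter).

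Between the treated groups, that is D20+TGF-β relative to D1+TGF-β, 6 of the 8 genes were called. CDKN2B, CDKN1A, CDKN1B and RBL2 rose and CCND1 and RB1 fell, where 34.8% of all genes were called (17.2% higher, 17.7% lower, and 21.2% without the filter). In D20 vs D1, 4 of the 8 were called, and CDKN1A, CDKN1B, CCND2 and RBL2 all rose. The background there was 36.4% (18.9% higher, 17.6% lower, and 22.0% without the filter). The response to TGF-β itself differed between D20 and D1 for CDKN2B and CCND1, 2 of 8, against 10.4% of all genes (4.51% higher, 5.87% lower, and 6.43% without the filter). The shares of the 8 genes called were thus close to the background for both TGF-β comparisons and above it between the treated groups, over few genes. In D20 vs D1 and the difference of responses, whether they exceeded it rested on few genes and single libraries. Without D1 replicate 3 or D20 replicate 2, 2 of 8 were called in D20 vs D1, where 30.5% and 27.4% of all genes were. The difference of responses was called for 1 of 8 when any 1 flask of D1+TGF-β or D20 was left out. The comparisons share groups of flasks, so their counts are not independent of each other. Flasks of the groups compared did not overlap for 36.4% of all genes tested in D1+TGF-β vs D1, 58.3% in D20+TGF-β vs D20, 63.2% between the treated groups and 55.6% in D20 vs D1. A lack of overlap was thus the usual outcome over all genes except in D1+TGF-β vs D1.

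**Figure D1:**
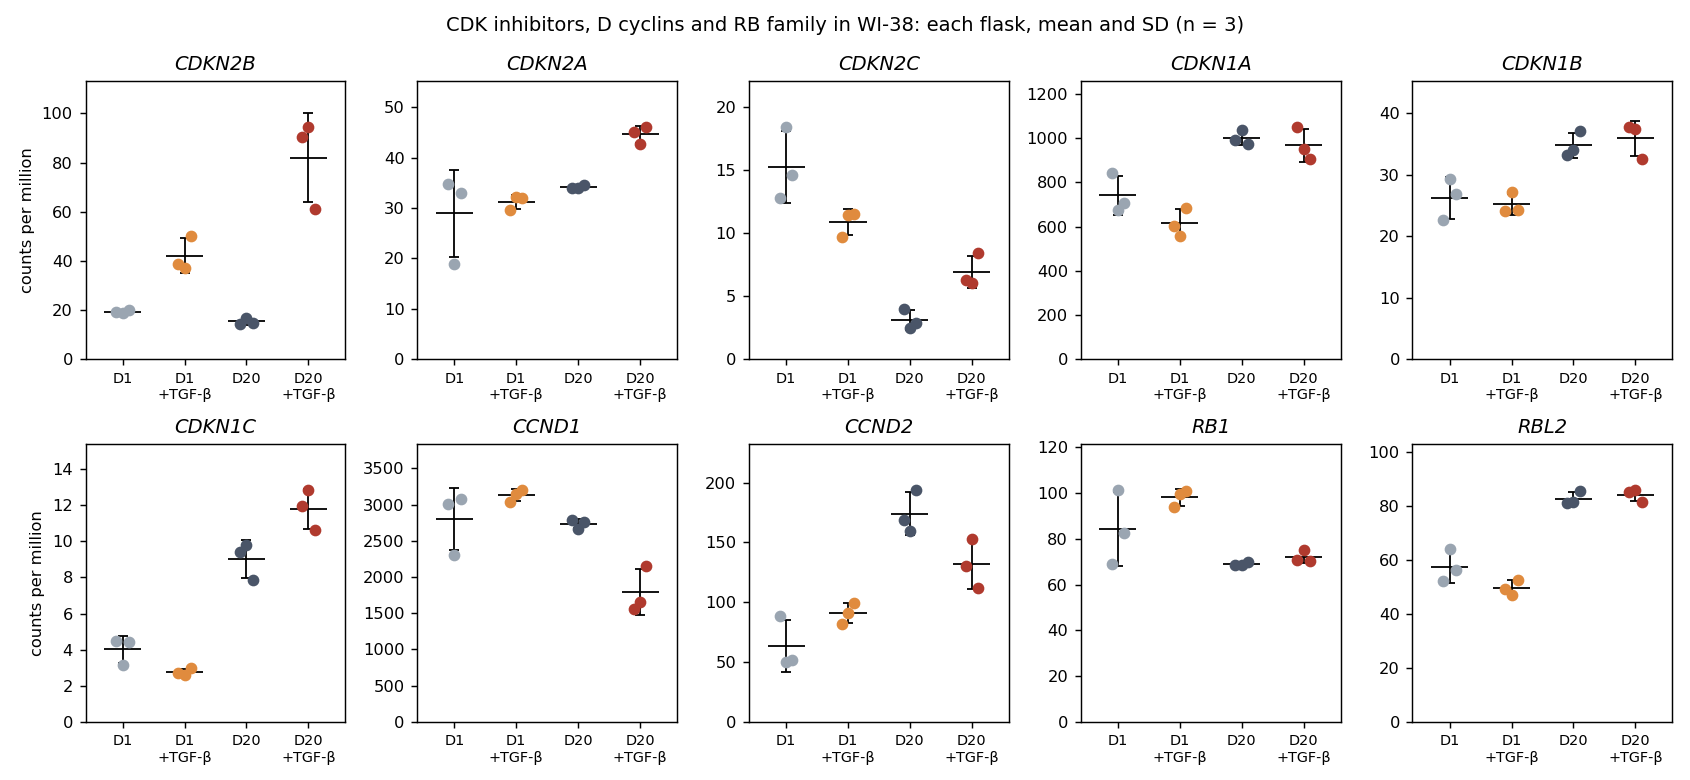
Level of each of the 10 genes in cpm (vertical axes, linear from 0) in the 4 groups (horizontal axes); points are flasks, lines are means and error bars are SDs over 3 flasks. CDKN2B stood at 14.4 to 19.8 cpm in untreated flasks and at 37.1 to 94.3 cpm in flasks with TGF-β. CDKN1A, CDKN1B, CDKN1C, CCND2 and RBL2 were higher, and CDKN2C lower, in all D20 flasks of either kind than in all D1 flasks. Among all genes tested, flasks did not overlap for 55.6% in D20 vs D1 and 63.2% between the treated groups.

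CDKN2B, the gene of p15INK4b (Entrez 1030, GRCh37 chromosome 9, 22002902 to 22009304, minus strand), was the member that moved most with TGF-β among the 8 tested. Its levels were 19.2, 18.8 and 19.8 cpm in D1 and 38.9, 37.1 and 50.2 cpm in D1+TGF-β. They were 14.4, 16.8 and 14.8 cpm in D20 and 90.4, 94.3 and 61.3 cpm in D20+TGF-β. No flask with TGF-β overlapped an untreated one, and D20+TGF-β replicate 3 was the lowest of its group. The gene was 2.17-fold higher in D1+TGF-β vs D1 (log2 fold change 1.12 ± 0.16 SE, edgeR adjusted p = 0.000209) and 5.35-fold higher in D20+TGF-β vs D20 (2.42 ± 0.16, edgeR adjusted p = 1.24e-07). The D20 response exceeded the D1 response by 1.30 ± 0.22 in log2 (edgeR adjusted p = 0.00131). Without D20+TGF-β replicate 3 this difference was 1.48.

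CDKN2B was also 0.97 ± 0.15 higher in log2 at D20 than at D1 with TGF-β (edgeR adjusted p = 0.000139). Between the untreated groups it was not called (log2 fold change -0.33 ± 0.17, edgeR adjusted p = 0.112), although all D20 flasks were below all D1 flasks. CDKN2B-AS1, an RNA transcribed across this gene from the other strand, had only 5 to 43 counts per library where CDKN2B had 148 to 1582. How the counting used strand is not given in the sources used here, so reads of the pair cannot be told apart where they overlap.

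The genes whose log2 levels followed CDKN2B most closely over the 12 libraries were RCN3 (Pearson r 0.97), BGN (0.96), SPOCK1 (0.96), THBS2 (0.96) and CDK2AP2 (0.96). The 12 points share libraries and fall into 4 groups, so these values only describe the likeness. SPOCK1, a secreted proteoglycan, went from 16.1 ± 2.5 to 79.7 ± 2.9 cpm with TGF-β at D1 and from 21.0 ± 0.35 to 229 ± 18 cpm at D20 (SD, n = 3). BGN, which encodes the matrix proteoglycan biglycan, went from 50.5 ± 8.5 to 162 ± 5.6 cpm and from 37.4 ± 3.4 to 216 ± 27 cpm. Like CDKN2B, both had their highest mean in D20+TGF-β.

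CDKN2A, which lies next to CDKN2B (Entrez 1029, chromosome 9, 21967751 to 21995300, minus strand), encodes p16INK4a and, from its other start, ARF. The gene count merges both transcripts. Its levels were 34.8, 18.9 and 32.9 cpm in D1, 29.5, 32.1 and 32.0 cpm in D1+TGF-β, 33.9, 34.0 and 34.6 cpm in D20 and 45.0, 42.7 and 46.0 cpm in D20+TGF-β. All D20+TGF-β flasks were above all others, and D1 replicate 2 stood far below the rest. With all libraries edgeR called no comparison. The log2 fold change was 0.39 ± 0.16 in D20+TGF-β vs D20 (edgeR adjusted p = 0.0660) and 0.51 ± 0.16 between the treated groups (edgeR adjusted p = 0.0171).

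That outcome depended on the test and on D1 replicate 2, which enters the spread shared by every comparison. With all libraries, DESeq2 called CDKN2A between the treated groups (0.51, adjusted p = 0.00559) but not in D20+TGF-β vs D20. With lanes as samples, limma-voom called it in both (adjusted p = 1.10e-06 and 4.19e-05). In a fit of only the D20 and D20+TGF-β libraries the change was called (0.39, edgeR adjusted p = 0.000817). Without D1 replicate 2 the gene was called in D20+TGF-β vs D20 (0.39, edgeR adjusted p = 0.000267) and between the treated groups (0.51, edgeR adjusted p = 3.13e-05). The difference of the TGF-β responses was then also called (0.50, edgeR adjusted p = 0.00207), against 0.26 ± 0.23 with all libraries (edgeR adjusted p = 0.443). In D1+TGF-β vs D1 it was not called either way, and the log2 fold change went from 0.12 ± 0.16 to -0.12 without that library.

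CDKN2C, the gene of p18INK4c (Entrez 1031, chromosome 1, 51426417 to 51440306, plus strand), was lower in D20 and was called there, unlike CDKN2B and CDKN2A. Its levels were 12.8, 18.4 and 14.6 cpm in D1, 9.7, 11.5 and 11.5 cpm in D1+TGF-β, 4.0, 2.4 and 2.9 cpm in D20 and 6.3, 6.1 and 8.4 cpm in D20+TGF-β. No pair of the groups compared overlapped. The gene fell by 2.41 ± 0.19 on the log2 scale in D20 vs D1 (edgeR adjusted p = 1.03e-10) and rose by 1.19 ± 0.20 in D20+TGF-β vs D20 (edgeR adjusted p = 4.98e-05). The TGF-β response at D20 exceeded that at D1 by 1.70 ± 0.26 (edgeR adjusted p = 4.83e-05), and at D1 itself the change was not called (-0.51 ± 0.16, edgeR adjusted p = 0.0382). It was called at D1 without D20+TGF-β replicate 3 (-0.51, edgeR adjusted p = 0.00742). Limma-voom with lanes as samples, which counts each library 4 times, called it too (-0.47, adjusted p = 0.00132).

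Between the treated groups CDKN2C fell by 0.71 ± 0.18 (edgeR adjusted p = 0.00269). This call was lost when D1+TGF-β replicate 2 or 3, or D20+TGF-β replicate 1 or 2, was left out, with adjusted p from 0.0103 to 0.0219. The genes most like CDKN2C over the 12 libraries, named after their values were seen, were CDCA3, CCNB2, DLGAP5, FAM64A and KIF20A (Pearson r 0.98 to 0.99). CCNB2 and KIF20A act in mitosis. The remaining INK4 gene, CDKN2D, which encodes p19INK4d, was under the filter with means of 5.0 to 7.0 cpm, and it was called in no comparison.

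Per kilobase of annotated exon, the 4 INK4 genes summed to 22.0 ± 1.7 cpm per kb in D1, 25.5 ± 2.3 in D1+TGF-β, 17.1 ± 0.23 in D20 and 38.1 ± 3.5 in D20+TGF-β (SD, n = 3). CDKN2B made up 22.0% ± 1.2 of that sum in D1, 41.1% ± 3.6 in D1+TGF-β, 22.4% ± 1.6 in D20 and 53.3% ± 7.3 in D20+TGF-β. The share of CDKN2C was 23.3% ± 6.2 in D1 and 14.2% ± 1.0 in D1+TGF-β, and it was 6.01% ± 1.6 in D20 and 6.12% ± 1.8 in D20+TGF-β. The order of CDKN2B and CDKN2A depended on the length used. With the longest transcript of each gene in place of all its exons, CDKN2A was the larger part in all 4 groups, at 60.5% against 30.2% for CDKN2B in D20+TGF-β. The rise of the CDKN2B share with TGF-β was present under both lengths, at 12.0% in D1 and 22.7% in D1+TGF-β with the longest transcript.

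**Figure D2:**
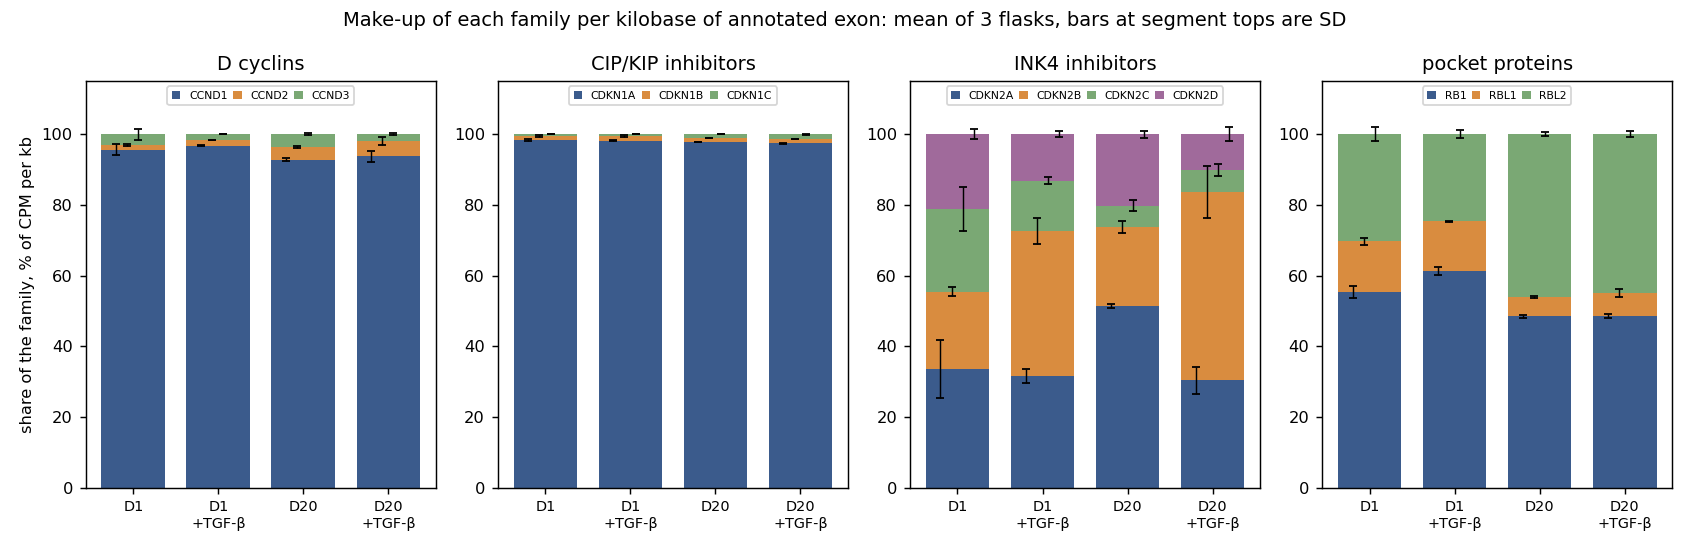
Share of each gene in its family, in % of the summed cpm per kilobase of exon (vertical axis), in the 4 groups (horizontal axis); segments are means of 3 flasks and error bars at their tops are SDs. The mean shares of CCND1 and CDKN1A were at least 92.8% and 97.4% in every group, or 88.9% and 96.7% with the longest transcript as length. The CDKN2B share was largest in D20+TGF-β, at 53.3%, or 30.2% with the longest transcript.

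CDKN1A, the gene of p21 and a classic p53 target (Entrez 1026, chromosome 6, 36644237 to 36655114, plus strand), was called between D20 and D1 and had no called change with TGF-β. Its levels were 842, 674 and 708 cpm in D1, 604, 558 and 682 cpm in D1+TGF-β, 991, 1037 and 975 cpm in D20 and 1049, 952 and 904 cpm in D20+TGF-β. All D20 flasks of either kind were above all D1 flasks of either kind. The gene was higher by 0.43 ± 0.10 on the log2 scale in D20 vs D1 (edgeR adjusted p = 0.00253) and by 0.66 ± 0.10 between the treated groups (edgeR adjusted p = 0.000136). The D20 vs D1 call was lost without D1 replicate 3 (0.40, edgeR adjusted p = 0.0121) or without D20 replicate 2 (0.39, edgeR adjusted p = 0.0155).

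With TGF-β, CDKN1A was not called at D1 (-0.27 ± 0.10, edgeR adjusted p = 0.0621) or at D20 (-0.05 ± 0.10, edgeR adjusted p = 0.729), and treated and untreated flasks overlapped at both times. Its nearest genes over the 12 libraries were GAL3ST4, CNTNAP1, ALDH6A1, AGBL5 and FAXDC2, each at a Pearson r of 0.97. CNTNAP1, a contactin-associated membrane protein, had 84.7 ± 16 cpm in D1, 60.7 ± 4.9 in D1+TGF-β, 128 ± 9.9 in D20 and 129 ± 12 in D20+TGF-β (SD, n = 3). Of the 21 other p53 targets examined, all of them tested, 10 rose and 1 fell in D20 vs D1, and also between the treated groups. Their median log2 fold changes were 0.28 and 0.24, against 0.01 for all genes in both comparisons, of which 36.4% and 34.8% were called. With TGF-β, 1 rose and 0 fell at D1, where edgeR without D1 replicate 2 gave 0 and 2, and 3 rose and 3 fell at D20, 6 of 21 where 27.5% of all genes were called. At D1 the share over all genes was 13.4%. Without D1 replicate 2, the number that fell was 2 in place of 1 in both comparisons of D20 with D1.

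CDKN1B, the gene of p27 (Entrez 1027, chromosome 12, 12838432 to 12875303, plus strand), had 22.6, 29.4 and 26.9 cpm in D1 and 24.1, 27.2 and 24.3 cpm in D1+TGF-β. It had 33.3, 34.0 and 37.1 cpm in D20 and 37.7, 37.5 and 32.6 cpm in D20+TGF-β, and again D20 flasks were above D1 flasks. It was 0.51 ± 0.10 higher on the log2 scale between the treated groups (edgeR adjusted p = 0.00136) and 0.40 ± 0.10 higher in D20 vs D1 (edgeR adjusted p = 0.00510). The latter call was lost in 10 of 21 alternatives, with adjusted p up to 0.0373 without D20 replicate 3 (log2 fold change 0.33), while the log2 fold change stayed between 0.31 and 0.49 over all 21. The former was lost in 1, without D1+TGF-β replicate 1 (0.45, edgeR adjusted p = 0.0102). With TGF-β the log2 fold change was -0.06 ± 0.11 at D1 and 0.05 ± 0.10 at D20, and neither was called.

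CDKN1C, the gene of p57 (Entrez 1028, chromosome 11, 2904443 to 2907005, minus strand), had the lowest level of the CIP/KIP genes in cpm. Its levels were 4.5, 3.1 and 4.4 cpm in D1, 2.7, 2.6 and 3.0 cpm in D1+TGF-β, 9.4, 9.8 and 7.8 cpm in D20 and 11.9, 12.8 and 10.6 cpm in D20+TGF-β. It was 2.06 ± 0.18 higher on the log2 scale between the treated groups (edgeR adjusted p = 2.34e-09) and 1.10 ± 0.17 higher in D20 vs D1 (edgeR adjusted p = 1.01e-05). Treated flasks were all below untreated ones at D1 (-0.55 ± 0.20, edgeR adjusted p = 0.0729) and all above them at D20 (0.41 ± 0.15, edgeR adjusted p = 0.0489), and neither change was called. The difference of these responses was 0.96 ± 0.25 (edgeR adjusted p = 0.0116). It was called without D1 replicate 2 (1.09, edgeR adjusted p = 0.00175) and without D20+TGF-β replicate 3 (1.02, edgeR adjusted p = 0.00373).

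**Figure D3:**
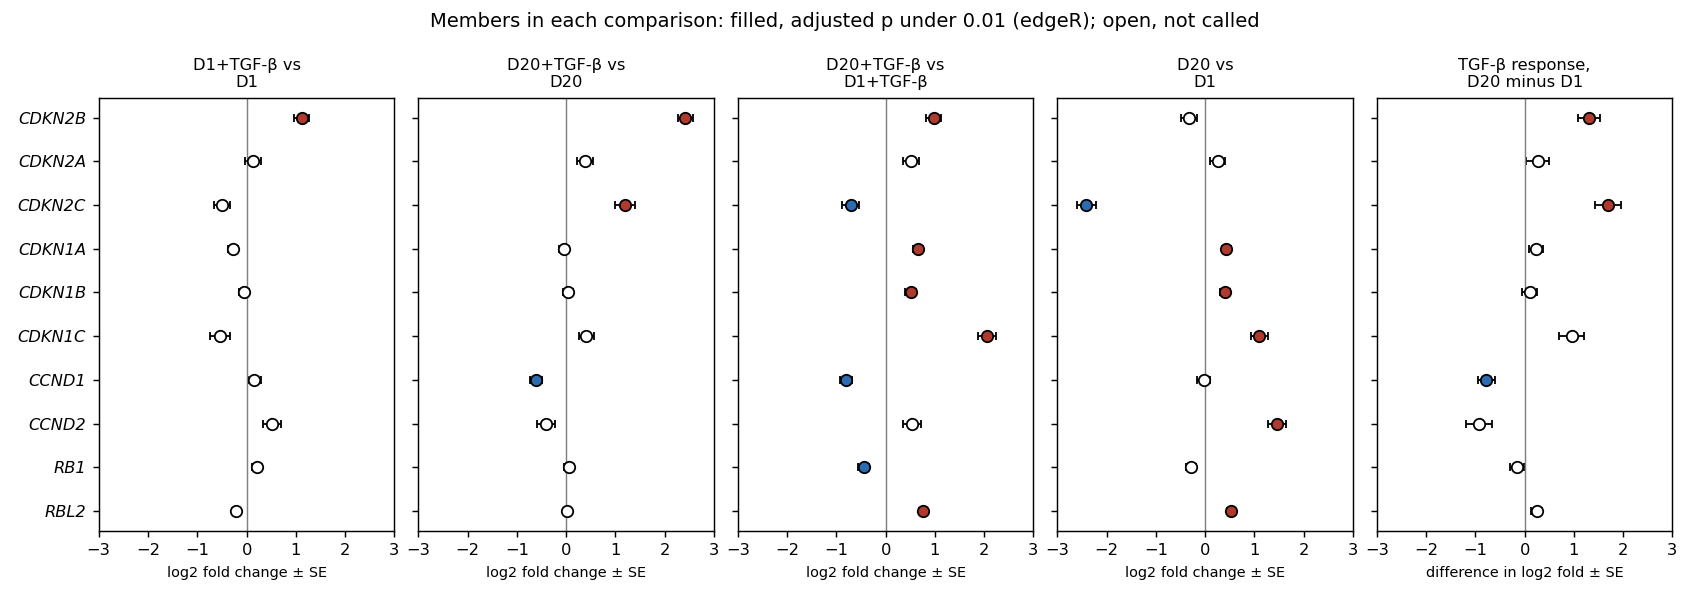
Log2 fold change of the 10 genes (rows) in the 4 comparisons, with the D20 response minus the D1 response in the last panel (horizontal axes), with standard errors; filled points have an edgeR adjusted p under 0.01, CDKN2C and CDKN1C in the fit without a filter. CDKN2B rose with TGF-β at both times. In contrast, CDKN1A, CDKN1B, CDKN1C and RBL2 were called in the 2 comparisons of D20 with D1 and in neither comparison with TGF-β.

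CCND1, the gene of cyclin D1 (Entrez 595, chromosome 11, 69455924 to 69469242, plus strand), was the most abundant of the 10 genes in cpm. Its levels were 3006, 2307 and 3083 cpm in D1, 3039, 3141 and 3200 cpm in D1+TGF-β, 2780.5, 2667 and 2765 cpm in D20 and 1561, 1658 and 2147 cpm in D20+TGF-β. The D20+TGF-β flasks were below all others. CCND1 fell by 0.61 ± 0.12 on the log2 scale in D20+TGF-β vs D20 (edgeR adjusted p = 0.00145) and by 0.81 ± 0.12 between the treated groups (edgeR adjusted p = 0.000161). The former call was lost without D20+TGF-β replicate 1 (-0.50, edgeR adjusted p = 0.0119).

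At D1, TGF-β left CCND1 uncalled (0.16 ± 0.12, edgeR adjusted p = 0.373), and the untreated groups did not differ past the threshold (-0.03 ± 0.12, edgeR adjusted p = 0.849). The difference of its TGF-β responses was -0.77 ± 0.18 (edgeR adjusted p = 0.00712). That call was lost when any 1 flask of D1+TGF-β or D20, or D20+TGF-β replicate 1 or 2, was left out, with adjusted p from 0.0171 to 0.0219, although the difference kept its sign throughout. D20+TGF-β replicate 3, which held the highest CCND1 of its group, also held the lowest CDKN2B and the highest CDKN2C. The genes most like CCND1 over the 12 libraries were PEA15, WDR1, ANXA2, SPOCD1 and TLDC1, with Pearson r of 0.98 for PEA15.

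CCND2, the gene of cyclin D2 (Entrez 894, chromosome 12, 4378937 to 4414519, plus strand), had 88.8, 50.3 and 51.3 cpm in D1 and 82.1, 90.7 and 99.1 cpm in D1+TGF-β. It had 169, 159 and 194 cpm in D20 and 130, 153 and 112 cpm in D20+TGF-β. It was 2.75-fold higher in D20 vs D1 (log2 fold change 1.46 ± 0.19, edgeR adjusted p = 2.54e-05), and all D20 flasks were above all D1 flasks. With TGF-β it was not called at D1 (0.52 ± 0.19, edgeR adjusted p = 0.0587), where D1 replicate 1 lay within the treated flasks. Without that replicate it was called (0.84, edgeR adjusted p = 0.000992).

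At D20 all flasks with TGF-β had less CCND2 than all untreated ones, as was the case in 1 direction or the other for 58.3% of all genes, and the change was not called (-0.40 ± 0.18, edgeR adjusted p = 0.0884). The difference of responses was -0.92 ± 0.26 (edgeR adjusted p = 0.0223). It passed the threshold without D1 replicate 1 (-1.24, edgeR adjusted p = 0.000629), with DESeq2 (-0.91, adjusted p = 0.00329) and without the gene filter (-0.89, edgeR adjusted p = 0.00374). Between the treated groups it was 0.54 ± 0.18 (edgeR adjusted p = 0.0262), and it was called without D1 replicate 1 (0.54, edgeR adjusted p = 0.00188) and with DESeq2 (0.54, adjusted p = 0.00831).

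Per kilobase the 3 D cyclins summed to 614 ± 85 cpm per kb in D1, 679 ± 19 in D1+TGF-β, 620 ± 15 in D20 and 400 ± 64 in D20+TGF-β (SD, n = 3). CCND1 made up 95.6% ± 1.5, 96.7% ± 0.13, 92.8% ± 0.42 and 93.7% ± 1.5 of these sums. With the longest transcript as length its mean share was lower, at 88.9% in D20. The share of CCND2 was 1.29% ± 0.37 in D1 and 3.51% ± 0.30 in D20. CCND3, the gene of cyclin D3 and not among the 10, fell with TGF-β at both times. Its log2 fold change was -0.69 ± 0.16 at D1 (edgeR adjusted p = 0.00733) and -1.48 ± 0.16 at D20 (edgeR adjusted p = 1.15e-05).

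RB1 (Entrez 5925, chromosome 13, 48877880 to 49173572, plus strand) encodes the retinoblastoma protein itself. Its levels were 68.9, 101 and 82.5 cpm in D1, 94.0, 99.5 and 101 cpm in D1+TGF-β, 68.7, 68.5 and 70.0 cpm in D20 and 70.9, 74.9 and 70.4 cpm in D20+TGF-β. It fell by 0.45 ± 0.11 on the log2 scale between the treated groups (edgeR adjusted p = 0.00340). That call was lost without D1+TGF-β replicate 2 or 3 or D20+TGF-β replicate 1, with adjusted p from 0.0115 to 0.0137. In D20 vs D1 it was not called (-0.29 ± 0.11, edgeR adjusted p = 0.0343) except when D1 replicate 1 was left out (-0.41, edgeR adjusted p = 0.00134), without the gene filter (-0.37, edgeR adjusted p = 0.00671) or with lanes as samples in limma-voom. With TGF-β it was not called at D1 (0.22 ± 0.10, edgeR adjusted p = 0.151) unless D1 replicate 2 was left out (0.37, edgeR adjusted p = 0.00264) or lanes were taken as samples.

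RBL2, the gene of p130 (Entrez 5934, chromosome 16, 53467889 to 53525560, plus strand), changed with time by more than its spread. Its levels were 52.2, 64.3 and 56.3 cpm in D1, 49.4, 47.0 and 52.7 cpm in D1+TGF-β, 81.3, 81.4 and 85.6 cpm in D20 and 85.2, 86.0 and 81.7 cpm in D20+TGF-β. All 6 D20 flasks were above all 6 D1 flasks. It was 0.52 ± 0.08 higher on the log2 scale in D20 vs D1 (edgeR adjusted p = 9.93e-05) and 0.77 ± 0.08 higher between the treated groups (edgeR adjusted p = 8.72e-06), and both calls held in all 21 alternatives. With TGF-β it was not called at D1 (-0.22 ± 0.08, edgeR adjusted p = 0.0633) or at D20 (0.03 ± 0.08, edgeR adjusted p = 0.807).

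Among the 3 pocket protein genes per kilobase, RB1 made up 55.4% ± 1.7 in D1, 61.2% ± 1.1 in D1+TGF-β, 48.4% ± 0.32 in D20 and 48.5% ± 0.67 in D20+TGF-β. RBL2 made up 30.3% ± 1.9, 24.6% ± 1.0, 46.0% ± 0.53 and 45.1% ± 0.89. RBL1, the gene of p107, made up 14.3% ± 0.89 in D1 and 5.54% ± 0.23 in D20, and it fell by 1.46 ± 0.14 on the log2 scale in D20 vs D1 (edgeR adjusted p = 2.24e-06). The mean sum of the 3 was between 22.2 and 24.9 cpm per kb in the 4 groups, and single flasks ranged from 19.8 to 27.5, both of them D1 flasks.

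Ordered by mean cpm per kb, CCND1 came first and CDKN1A next in all 4 groups with exon lengths. In D1 they were at 588 ± 90 and 247 ± 30 cpm per kb (SD, n = 3) and their flasks were apart, as they were in D1+TGF-β and D20. In D20+TGF-β they were at 376 ± 66 and 323 ± 25 and their flasks overlapped, and with the longest transcript as length CDKN1A came first. The other 8 genes were all at 21.8 cpm per kb or below. In D1 the next were RB1, CCND2, CDKN2A and RBL2, at 13.1 to 7.10 cpm per kb, each overlapping with the one after it, followed by CDKN2C and CDKN2B, which overlapped, then CDKN1B and CDKN1C.

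In D20 CCND2 came next after CCND1 and CDKN1A, at 21.8 ± 2.2 cpm per kb, apart from RB1, and CDKN2C was last at 1.03 ± 0.26. CDKN2B, CDKN1B and CDKN1C, at 3.83 to 3.63, could not be ordered there. In D20+TGF-β the place after CCND1 and CDKN1A was held by CDKN2B at 20.5 ± 4.5, overlapping with CCND2 at 16.5 ± 2.6. With the longest transcript as length, CDKN2A took that place in all 4 groups, and other places below it changed too.

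The other genes of the pathway were examined as lists. Of 22 E2F and DREAM target genes, which act in replication and mitosis, all were tested and all 22 fell in D20 vs D1 and between the treated groups. Their median log2 fold changes were -2.39 and -1.09, where 36.4% and 34.8% of all genes were called. GINS2 and CDT1 passed the filter only through the D1 and D1+TGF-β libraries. In D20 and D20+TGF-β, GINS2 had at most 3.69 and 6.50 cpm and CDT1 at most 4.56 and 6.88 cpm. Their being tested thus favoured a fall, and the share over all genes is not a like background for them. In D20+TGF-β vs D20, 15 of the 22 targets rose and 0 fell (median 1.03), where 27.5% of all genes were called. At D1, where 13.4% were called, 0 rose and 1 fell (median -0.07). The response at D20 exceeded that at D1 for 13 of the 22 targets and was below it for 0, where 10.4% of all genes were called. Their summed level was 1581 to 2172 cpm in D1, 1724 to 1770 in D1+TGF-β, 377 to 445 in D20 and 641 to 988 in D20+TGF-β. D1 replicate 2 and D20+TGF-β replicate 3 held the highest sums of their groups, and the same libraries held the highest CDKN2C.

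This level of proliferation genes moved with D20 vs D1 as CDKN2C did and opposite to CDKN1A, CDKN1B, CDKN1C, CCND2 and RBL2. Whether it had a part in those results was not tested. In RNA from whole flasks, fewer cells in cycle and less RNA per cell cannot be told apart.

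Of 22 partners at the G1 to S step, the D cyclin, cyclin E, kinase, E2F and related genes outside the 10, 16 were tested. In D20 vs D1, 3 rose and 11 fell (median -0.45), where 36.4% of all genes were called. E2F1 and CDC25A of the 16 passed the filter only through D1 and D1+TGF-β libraries, which favoured a fall. Between the treated groups, where 34.8% were called, 1 rose and 8 fell (median -0.51), or 15 fell of all 22 without the gene filter. In D20+TGF-β vs D20, 4 rose and 2 fell, 6 of 16 where 27.5% of all genes were called, and at D1, 2 rose and 1 fell, 3 of 16 where 13.4% were. CDK4, a kinase that D cyclins activate, fell by 0.48 ± 0.11 on the log2 scale in D20 vs D1 and rose by 0.68 ± 0.11 in D20+TGF-β vs D20 (edgeR adjusted p = 0.00210 and 0.000231). CDK6, its close relative, rose with TGF-β at D1 (0.94 ± 0.13, edgeR adjusted p = 0.000228) and by 0.94 ± 0.13 in D20 vs D1 (edgeR adjusted p = 6.76e-05). At D20 its change with TGF-β was not called (-0.08 ± 0.13, edgeR adjusted p = 0.656), and the responses differed (-1.02 ± 0.19, edgeR adjusted p = 0.00212).

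E2F7, a repressor of E2F targets, rose with TGF-β at D1 (0.97 ± 0.20, edgeR adjusted p = 0.00352) and at D20 (1.83 ± 0.22, edgeR adjusted p = 2.36e-05). SKP2 and CKS1B, which together mark p27 for degradation, moved apart in D20+TGF-β vs D20. SKP2 fell by 0.74 ± 0.10 (edgeR adjusted p = 8.86e-05) and CKS1B rose by 1.02 ± 0.15 (edgeR adjusted p = 0.000125), while CDKN1B was not called.

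Of 7 genes of the MuvB core and its partners, which join RBL2 in DREAM or activate mitotic genes later, 5 were tested. In D20 vs D1 0 rose and 2 fell, 2 of 5 where 36.4% of all genes were called. MYBL2 fell by 2.61 ± 0.27 and FOXM1 by 2.20 ± 0.17 in log2 (edgeR adjusted p = 3.73e-06 and 3.43e-07). MYBL2 passed the filter only through D1 and D1+TGF-β libraries, which favoured a fall. Without D1 replicate 2, 3 of the 7 passed the filter and 1 of them fell. The core genes LIN52, LIN54 and RBBP4 were not called there, with log2 fold changes of -0.28, -0.10 and 0.10. In the fit without a filter the core gene LIN9, at a mean of 7.63 cpm in D1 and 3.24 cpm in D20, fell by 1.31 ± 0.19 (edgeR adjusted p = 3.07e-06), and LIN37 was not called (-0.16 ± 0.19, edgeR adjusted p = 0.565). In D20+TGF-β vs D20 FOXM1 alone of the 5 was called, where 27.5% of all genes were. FOXM1 rose there (1.36 ± 0.17, edgeR adjusted p = 3.71e-05).

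Of 10 genes known to be induced by TGF-β, 9 were tested. At D1 7 rose and 0 fell with a median of 1.26, where 13.4% of all genes were called. At D20 2 rose and 1 fell with a median of -0.05, near the 27.5% of all genes called. Without D1 replicate 2 or without the gene filter, 2 fell there. The D20 response was below the D1 response for 6 of the 9 and above it for 0, where 10.4% of all genes were called. Over the same flasks CDKN2B had a larger response at D20 than at D1.

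**Figure D4:**
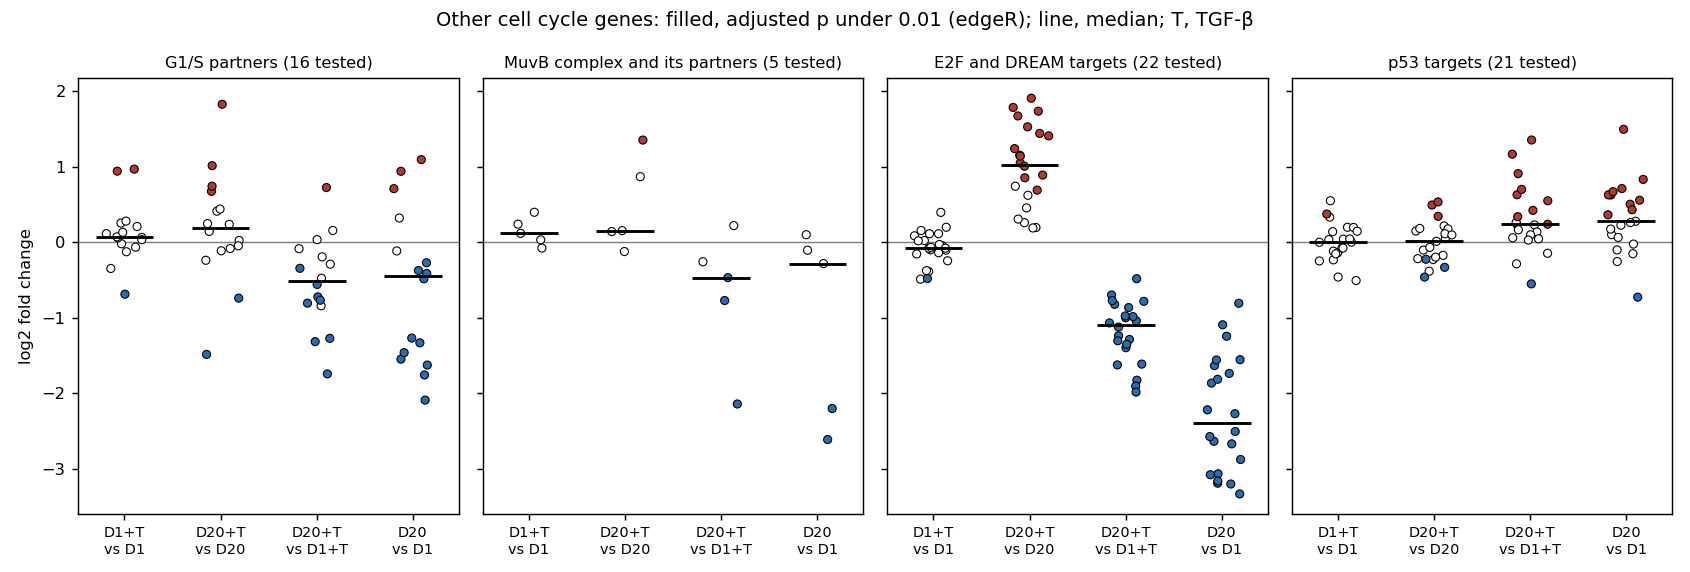
Log2 fold change (vertical axis) of the tested genes of 4 lists in the 4 comparisons (horizontal axis, with T for TGF-β); points are genes, filled where the edgeR adjusted p was under 0.01, and lines are medians. All 22 E2F and DREAM targets fell in both comparisons of D20 with D1, and 15 rose in D20+TGF-β vs D20. GINS2 and CDT1 of these targets passed the filter only through D1 and D1+TGF-β libraries.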

How the data were processed

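RNA of 12 WI-38 flasks, 3 in each of 4 groups, was sequenced in paired ends from a directional kit, each library on 4 lanes. The authors trimmed reads with Trimmomatic, mapped them to hg19 with Rsubread and deposited a table of raw counts, 25702 genes by 48 lanes. The authors also deposited log2 cpm from limma's voom for 9412 genes, which gave gene symbols and served in 1 alternative. The counting program, annotation and use of strand are not given in the sources used here.

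Columns were assigned by name, and 0 were unassigned. Lanes were summed per library, and totals ranged from 8674488 to 18286197 counts. A gene was tested where 6 or more of the 12 libraries held 10 cpm or more by the plain library total, which left 9490 of 20434 with a count. edgeR 4.0.16 in R 4.3.3 fitted 1 mean per group by quasi-likelihood with TMM scaling and Benjamini-Hochberg adjustment over all genes tested. The fit was tested on simulated data. CDKN2C and CDKN1C were taken from the same fit without the filter. A standard error is the absolute log2 fold change divided by the square root of F. Because an exact permutation test of 3 against 3 flasks cannot go below 0.1, no single-gene permutation was used. Likeness is Pearson's r of log2 cpm with a prior count of 2. The genes named are the 10 genes, list genes and the 5 genes most like CDKN2B, CDKN1A and CCND1, and the 5 most like CDKN2C were added after their values were seen. The alternatives were DESeq2 1.42.0, limma 3.58.1, other scalings, no filter, fewer libraries and a replicate block. Gene lengths and coordinates are from GENCODE on GRCh37, and promoter stretches from RefSeq on GRCh38.p14. The 10 genes and the lists were chosen with earlier results of these data known. p-values measure the spread between these flasks. D20 flasks of a group are sisters, so the p-values do not cover a difference between the D20 parent flasks.

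The replicate numbers did not pair the flasks: over 18 same-numbered pairs the correlation of deviations was -0.22 to 0.32, and 4 were over 0.1.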

Additional observations from a re-analysis of the deposited data

Results flagged for a closer look

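By the test of the difference itself, the response to TGF-β differed between D20 and D1 for CDKN2B and CCND1, 2 of the 8 genes that passed the filter, where 10.4% of all genes did. In the fit without a filter it differed for 4 of the 10, CDKN2C and CCND2 (-0.89, edgeR adjusted p = 0.00374) being added, where 6.43% of all genes did. For CDKN2B the D20 response was larger by 1.30 in log2 (edgeR adjusted p = 0.00131), with all treated flasks above all untreated flasks at both times, a lack of overlap that 36.4% of all genes tested had at D1 and 58.3% at D20. For CDKN2C the difference was 1.70 (edgeR adjusted p = 4.83e-05, fit without a gene filter), with treated flasks all below untreated ones at D1 and all above them at D20. For CCND1 it was -0.77 (edgeR adjusted p = 0.00712), with overlapping flasks at D1 and treated flasks all below untreated ones at D20. The CCND1 call was lost in 9 of 20 alternatives, whereas those of CDKN2B and CDKN2C held in all of theirs. The summed level of the E2F and DREAM targets was also higher with TGF-β at D20, as CDKN2B and CDKN2C were and opposite to CCND1. It was 377 to 445 cpm without TGF-β and 641 to 988 cpm with it. At D1 CDKN2B rose with TGF-β, whereas 0 of these targets were called higher and 1 lower. Within D20+TGF-β, replicate 3 held the highest target sum and the lowest CDKN2B. The part of the targets in these results was not tested.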

How the results depend on the processing

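The number of the genes called between the treated groups (D20+TGF-β relative to D1+TGF-β), 6, stayed within 1.5 times of itself in every alternative. Taking the 48 lanes as samples, which counts each library 4 times, gave 6 called in D1+TGF-β vs D1, 4 in D20+TGF-β vs D20 and 5 in the difference of responses. The difference of responses gave 1 without a composition factor and 4 without the gene filter, where all 10 genes were tested. Leaving out 1 library in turn gave 1 to 2 in D1+TGF-β vs D1, 1 to 3 in D20+TGF-β vs D20, 2 to 4 in D20 vs D1 and 1 to 3 in the difference of responses. A replicate block, for numbers that do not pair the flasks, left the counts at 1, 2, 6, 4 and 2. Of 1020 single values under the alternatives, 948 kept their direction and side of the threshold, 30 lost their call, 37 gained one and 5 changed sign.

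The 5 sign changes came from leaving out 1 library and were of values called in neither fit. Over the libraries left out, the log2 fold change ranged from -0.12 to 0.29 for CDKN2A and from -0.14 to 0.036 for CDKN1B in D1+TGF-β vs D1, from -0.082 to 0.018 for CDKN1A in D20+TGF-β vs D20, and from -0.16 to 0.042 for CCND1 in D20 vs D1. The cause was not tested. CDKN2C and CDKN1C, with as few as 32 and 23 counts in a library, carry the largest counting error of the 10 genes.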
